A study of Mus musculus with 12 samples.

Results

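The inflammasome and pyroptosis genes described here were 10 mouse genes chosen by name, Nlrp3, Nlrc4, Aim2, Nlrp1b, Nek7, Pycard, Casp1, Casp4, Gsdmd and Ninj1, of the 21834 genes in the table of read counts. Each name matched 1 row. RNA was sequenced from BV2 cells, an immortalized line of mouse microglia, the macrophages that reside in the brain. A line carrying a control shRNA (shCtrl) and a line carrying 1 shRNA against Anxa2 (shAnxa2) were each left untreated (CTRL) or taken through oxygen-glucose deprivation and reoxygenation (OGDR), a culture model of stroke and reperfusion. The 4 groups shCtrl-CTRL, shCtrl-OGDR, shAnxa2-CTRL and shAnxa2-OGDR held 3 libraries each, 12 in all. Both lines had been infected with lentivirus and selected with puromycin, so the shCtrl libraries also carry a vector and a selection history. By the labels deprivation lasted 4 h and reoxygenation 12 h, whereas the methods of the study give a longer reoxygenation for BV2 cells. Whether a line was grown from a single clone is not given in the sources used here.

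Inflammasomes are protein complexes that form in the cytosol when a sensor detects a microbial product or cell damage. In many inflammasomes, though not in all, the sensor recruits the adaptor ASC, encoded by Pycard, which gathers and activates caspase-1. Caspase-1 then matures IL-1β and IL-18 and cleaves gasdermin D. The freed gasdermin D fragment forms pores in the plasma membrane, and the protein NINJ1 afterwards ruptures the membrane, which completes the lytic death called pyroptosis. In microglia this pathway is studied as a source of inflammation after ischemia. Most of its steps are set by cleavage and assembly of proteins, which RNA counts do not measure.

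Several facts about the libraries bear on every value below. Total counts per library lay between 19521877 and 27288843. Anxa2, the targeted gene, averaged 172 ± 6.36 CPM in shCtrl-CTRL, 279 ± 24.3 in shCtrl-OGDR, 40.4 ± 4.86 in shAnxa2-CTRL and 19.6 ± 1.26 in shAnxa2-OGDR (mean ± SD, n = 3). CPM, the usual unit of counts relative to library size, were taken after TMM scaling of the library sizes. All shAnxa2 libraries were therefore below all shCtrl libraries, as the sample names have it, while another label for the cell type calls shCtrl-OGDR a knockdown and shAnxa2-CTRL wild type. The libraries were grouped by their names. As a root mean square distance over the 11626 genes tested, in log2(CPM + 0.1), shAnxa2-OGDR stood closest to shCtrl-CTRL (0.416) and shAnxa2-CTRL closest to shCtrl-OGDR (0.453), against 0.584 between treatments in the shCtrl line, 0.496 in the shAnxa2 line and 0.252 to 0.28 within groups. The level of Anxa2 tells the lines apart but does not settle the treatment label. Its log2 fold change after OGD/R was 0.70 (SE 0.06) in the shCtrl line and -1.04 (SE 0.08) in the shAnxa2 line. The study reports that Anxa2 RNA rose in BV2 cells after OGD/R. Whether the treatment names within the shAnxa2 line are right was not tested. The direction of every OGD/R change in that line therefore rests on the sample names. So do both differences between the lines, and the difference between their OGD/R changes, for every gene below. All 12 microglia and macrophage markers that were listed reached 1 CPM, with a summed level of 1740 to 2170 CPM in a library. Group means were low for P2ry12 (1.73 to 2.53 CPM), Aif1 (2.93 to 5.75), Cx3cr1 (3.05 to 5.85) and Tmem119 (1.87 to 10.3). Those of the other listed microglia and macrophage markers were 10.0 CPM or more. Of 29 markers of other cell types Mbp reached 1 CPM in every group, at group means of 3.25 to 5.09 CPM, and the endothelial marker Cdh5 in shCtrl-CTRL (1.21 CPM) and shAnxa2-OGDR (1.63 CPM), the others having group means below 1 CPM. Aqp4, Snap25, Syt1, Mog, Dcn, Cd3e, Cd3g, Ly6g and S100a9 had no counts. In such bulk libraries a lower level cannot be told apart from fewer cells that express a gene.

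Upstream sequences of 3 of the genes are printed because the largest OGD/R change among the 10 was that of Casp4, because Casp1 is its neighbour on the chromosome and was not called, and because Nlrp3 moved the other way from Casp4. They are the 250 bases before the RefSeq start site on the GRCm38.p6 build, on the plus strand in each case. Capitals mark matches, on either strand, to the NF-kB consensus (Casp4 and the first run of Nlrp3) or to ACGTG, the core of the hypoxia response element (Casp1 and the second run of Nlrp3).
Casp4, chr9:5308599-5308848: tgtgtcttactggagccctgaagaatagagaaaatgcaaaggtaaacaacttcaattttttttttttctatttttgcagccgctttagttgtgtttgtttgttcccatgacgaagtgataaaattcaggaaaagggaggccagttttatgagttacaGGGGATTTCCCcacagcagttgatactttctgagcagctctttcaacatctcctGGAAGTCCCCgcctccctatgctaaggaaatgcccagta
Casp1, chr9:5298267-5298516: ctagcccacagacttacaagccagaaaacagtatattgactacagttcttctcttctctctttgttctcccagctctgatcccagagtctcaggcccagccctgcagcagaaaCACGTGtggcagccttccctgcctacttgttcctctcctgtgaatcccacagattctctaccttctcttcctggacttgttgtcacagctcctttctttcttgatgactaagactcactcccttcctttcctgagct
Nlrp3 (the more upstream of 2 start sites), chr11:59541319-59541568: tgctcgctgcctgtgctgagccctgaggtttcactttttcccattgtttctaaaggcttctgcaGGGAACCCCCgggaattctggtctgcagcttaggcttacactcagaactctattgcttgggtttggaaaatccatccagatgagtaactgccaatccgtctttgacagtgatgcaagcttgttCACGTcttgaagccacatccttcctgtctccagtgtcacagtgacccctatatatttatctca
The Casp4 window holds the NF-kB consensus at bases -93 to -83, where matches on both strands overlap, and again at -39 to -30, counted back from the start site. The Casp1 window holds CACGTG at -137 to -132, in which ACGTG reads on both strands, and no NF-kB match. The Nlrp3 window holds the NF-kB consensus at -186 to -177 and ACGTG on the minus strand at -63 to -59. Of the 10 genes, 9 were matched to RefSeq promoters, with 12 start sites, and Gsdmd was not matched. No NF-kB or ACGTG match lay in the windows of Nlrc4, Aim2, Nlrp1b, Nek7, Pycard and Ninj1 or of the other Nlrp3 start site, while the second Casp4 start site shares the Casp4 matches. GAAANNGAA, the core of the interferon-stimulated response element, and TGANTCA, the AP-1 site, were in none of the 12. Among 32851 mouse promoters, 7.25% of such windows hold the NF-kB consensus, 16.6% ACGTG, 7.13% GAAANNGAA and 6.75% TGANTCA. The 3 printed windows were chosen with the changes known, and whether a match bears on any change was not tested. A match is a description of the letters only.

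The genes differed widely in level, and Pycard was barely detected. Per kilobase of exons, and averaged over the 12 libraries, Ninj1 stood highest at 56.1 CPM, followed by Gsdmd at 39.3, Aim2 at 22.8, Casp1 at 20.7, Nek7 at 17.2, Nlrp3 at 14.6 and Casp4 at 13.9. Far below came Nlrc4 at 1.51, Nlrp1b at 0.541 and Pycard at 0.110. The 12 libraries of Gsdmd did not overlap those of Aim2, and each step from Casp4 down to Nlrc4, Nlrp1b and Pycard was also free of overlap. Ninj1 and Gsdmd overlapped, as did each pair of neighbours from Aim2 to Casp4. Ninj1 and Gsdmd, the effectors at the membrane, stood above 92.6% and 88.2% of all genes tested, Nlrc4 above 20.1%, Nlrp1b above 11.7% and Pycard above 2.34%. With the longest coding transcript as the length, Casp4 moved from rank 7 to rank 3, since its annotated exons are much longer than its longest coding transcript. The spread over the libraries was widest, among the genes well above the floor, for Casp4, whose highest library was 3.14 times its lowest, and narrowest for Aim2, at 1.23 times.

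**Figure D1:**
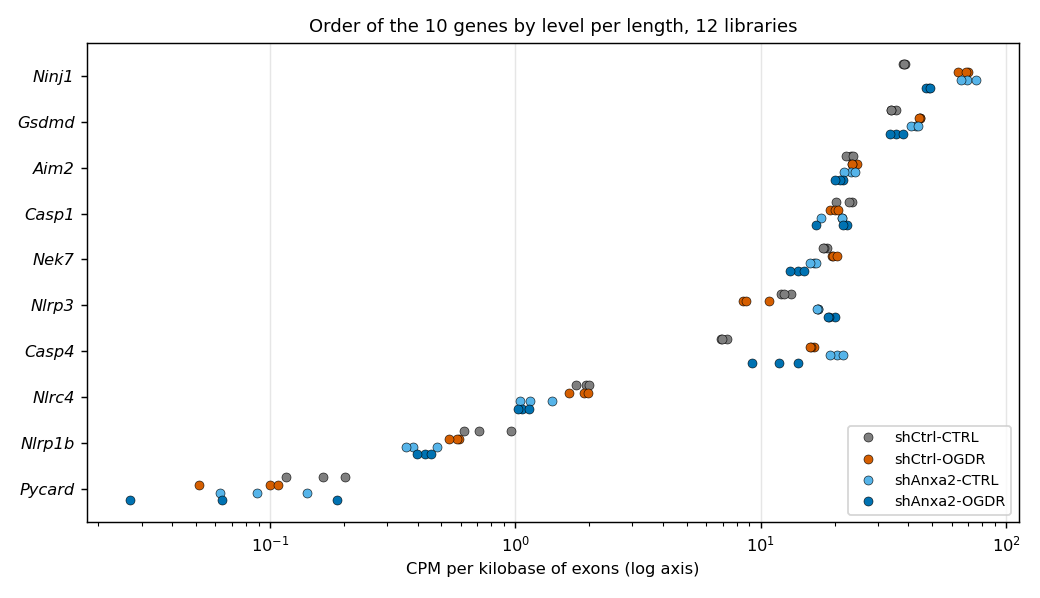
Level of each of the 10 genes in CPM per kilobase of exons (x axis, log scale), with 1 point per library (12 per gene) coloured by group and genes ordered from the highest mean to the lowest. Ninj1 and Gsdmd lie at the top, Nlrc4, Nlrp1b and Pycard lie below the other 7 genes without overlap, and the 4 groups of libraries do not overlap for Nlrp3, Nek7 and Casp4.

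The question of the first comparison is what OGD/R did to these genes in cells with the control shRNA. In shCtrl cells Casp4 and both membrane effectors rose, Nek7 rose slightly, and Nlrp3 and Nlrp1b fell. A gene was called when its edgeR quasi-likelihood p, adjusted over all genes by Benjamini-Hochberg, was under 0.05. On that rule 4 of the 10 were higher, 2 lower and 4 not called. Over all genes tested 32.4% were higher and 31% lower, so the share called is close to the background. With a fold over 1.5 required as well, 2 of the 10 were called, Casp4 and Ninj1, beside 20.1% of all genes. The median log2 fold change of the 10 was 0.00, as that of all genes, and the median of its size was 0.39 against 0.30.

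In the shAnxa2 line Casp4, Gsdmd, Ninj1, Nek7 and Aim2 were lower in shAnxa2-OGDR than in shAnxa2-CTRL and Nlrp3 was higher, so that 1 of the 10 was higher, 5 lower and 4 not called, beside 28.2% of all genes higher and 26.8% lower. Only Casp4 also passed a fold of 1.5, beside 12.1% of all genes. The median log2 fold change of the 10 was -0.15, and that of all genes 0.00. Nlrp3, Nek7, Casp4, Gsdmd and Ninj1, 5 of the 10, were called in both lines in opposite directions, and 0 were called in the same direction. Over all genes tested 44.4% crossed in this way and 0.637% were called in both lines with 1 sign, so the crossing of these genes is that of the libraries at large.

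**Figure D2:**
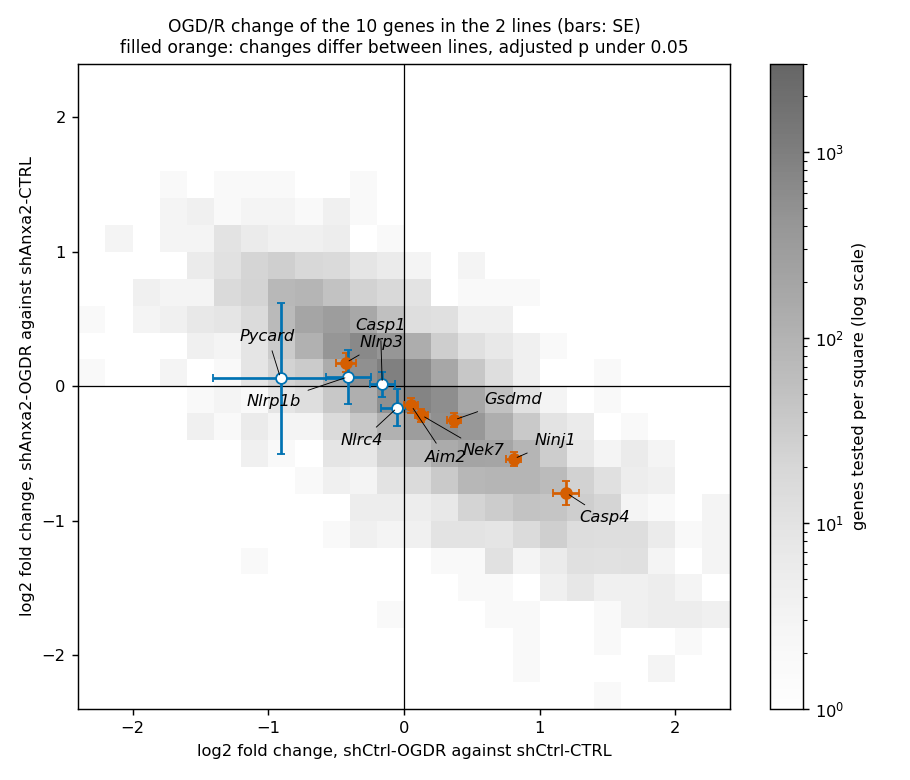
The edgeR log2 fold change after OGD/R in the shCtrl line (x axis) against that in the shAnxa2 line (y axis), with SE bars, for the 10 genes over the density of all genes tested (grey squares, log scale, 68 of 11626 genes outside the axes). Casp4 (1.20 and -0.79), Ninj1 (0.81 and -0.54) and Gsdmd (0.37 and -0.25) lie in the lower right and Nlrp3 (-0.43 and 0.18) in the upper left, along the same diagonal as the other genes.

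The remaining comparisons set the lines against each other. Without OGD/R, shAnxa2 cells had more Casp4, Ninj1, Gsdmd and Nlrp3 RNA and less Nlrc4, Nlrp1b and Nek7 RNA than shCtrl cells, which is 4 of the 10 higher, 3 lower and 3 not called, beside 29.5% of all genes higher and 29.7% lower. Of these, 4 passed a fold of 1.5 (Casp4, Ninj1, Nlrc4 and Nlrp1b), beside 15.6% of all genes. After OGD/R, Nlrp3 alone was higher in shAnxa2 cells, while Nlrc4, Aim2, Nlrp1b, Nek7, Casp4, Gsdmd and Ninj1, 7 of the 10, were lower and 2 were not called, beside 33.8% of all genes higher and 34.2% lower. With the fold limit 2 were called, Nlrp3 and Nlrc4, beside 26.3% of all genes. The median log2 fold change of the 10 between the lines was -0.07 untreated and -0.37 after OGD/R, against 0.00 for all genes in both cases. The OGD/R change itself differed between the lines for 6 of the 10, with 1 higher in the shAnxa2 line (Nlrp3) and 5 lower (Casp4, Ninj1, Gsdmd, Nek7 and Aim2), beside 34.9% and 35.1% of all genes, and 4 of them passed a fold of 1.5, beside 41.8% of all genes. These comparisons share libraries, so their values are given side by side for each gene.

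**Figure D3:**
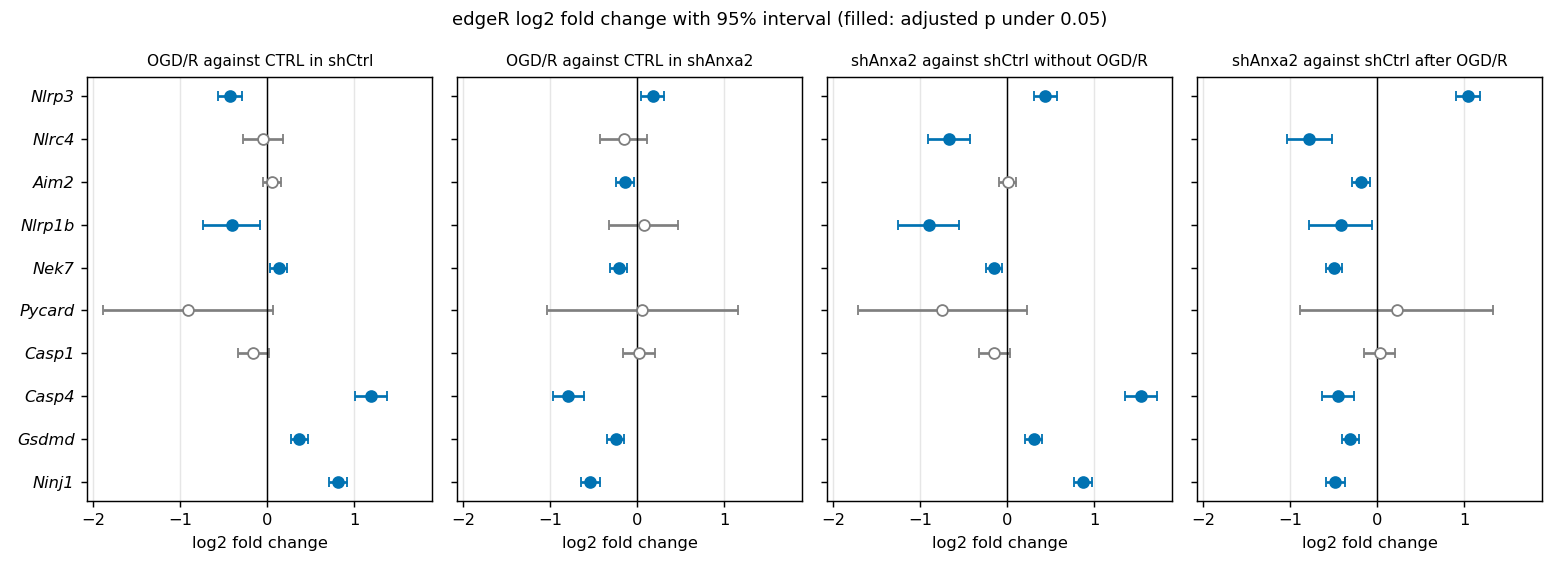
The edgeR log2 fold change (x axis) of each of the 10 genes (rows) with its 95% interval in 4 comparisons (panels), filled where the adjusted p was under 0.05. Casp4, Gsdmd and Ninj1 lie right of 0 for OGD/R in shCtrl and for the untreated lines and left of 0 in the other two panels, Nlrp3 lies right of 0 in all panels but that of OGD/R in shCtrl, and Casp1 and Pycard are open in all 4.

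Among the sensors, Nlrp3, which responds to potassium loss and other signs of damage, changed in every comparison, and it was highest in the knockdown line. Nlrp3 (chromosome 11, 59432394 to 59457782 on the plus strand of mm39) had 54.0, 48.9 and 50.3 CPM in shCtrl-CTRL and 34.3, 44.0 and 35.2 CPM in shCtrl-OGDR. It had 69.6, 69.3 and 68.7 CPM in shAnxa2-CTRL and 81.5, 77.0 and 76.0 CPM in shAnxa2-OGDR. The 4 groups did not overlap, with shCtrl-OGDR lowest and shAnxa2-OGDR highest, and within shCtrl-OGDR the second library stood above the other two. Nlrp3 fell by 0.43 ± 0.07 (log2, SE) after OGD/R in the shCtrl line (adjusted p = 1.50e-05) and rose by 0.18 ± 0.07 in the shAnxa2 line (adjusted p = 0.0335). Leaving out any of shAnxa2-CTRL libraries 1, 2 and 3 or shAnxa2-OGDR libraries 1 and 2 ended the second call, with log2 fold changes of 0.15 to 0.18 and adjusted p of 0.0621 to 0.123. In shAnxa2 against shCtrl cells it was higher by 0.44 ± 0.07 without OGD/R (adjusted p = 8.49e-06) and by 1.04 ± 0.07 after it, a 2.06-fold difference (adjusted p = 4.57e-12). The interaction was 0.60 ± 0.10 (adjusted p = 8.76e-06).

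Nlrc4, which pairs with NAIP proteins that bind bacterial flagellin and secretion proteins, differed between the lines and was not called for OGD/R. Nlrc4 (chromosome 17, 74732433 to 74766137, minus strand, mm39) had 8.48, 9.38 and 9.63 CPM in shCtrl-CTRL, 9.19, 7.98 and 9.53 in shCtrl-OGDR, 6.80, 5.00 and 5.52 in shAnxa2-CTRL, and 5.10, 4.93 and 5.48 in shAnxa2-OGDR. Every shAnxa2 library was below every shCtrl library, and the treatments overlapped within each line. The line difference of Nlrc4 was -0.67 ± 0.13 without OGD/R (adjusted p = 6.70e-05) and -0.78 ± 0.13 after it (adjusted p = 1.02e-05), from counts of 100 to 262 per library. Its OGD/R change was -0.05 in shCtrl cells (95% interval -0.28 to 0.18) and -0.16 in shAnxa2 cells (-0.43 to 0.11).

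Aim2, the receptor for double-stranded DNA in the cytosol, was the steadiest of the genes well above the floor. Aim2 (chromosome 1, 173178445 to 173293606, plus strand, mm39) ranged from 77.7 to 86.3 CPM in the shCtrl libraries, from 76.3 to 84.9 CPM in shAnxa2-CTRL and from 70.3 to 76.0 CPM in shAnxa2-OGDR. Only shAnxa2-OGDR stood lower, just under the lowest shAnxa2-CTRL library. Aim2 differed by -0.14 ± 0.05 after OGD/R in the shAnxa2 line (adjusted p = 0.0262), a call that was lost without shAnxa2-CTRL library 1 (-0.14, adjusted p = 0.0635) or 3 (-0.11, adjusted p = 0.130) or shAnxa2-OGDR library 3 (-0.12, adjusted p = 0.0852). Between the lines after OGD/R the log2 difference, shAnxa2 over shCtrl, was -0.19 ± 0.05 (adjusted p = 0.00248). The interaction of -0.19 ± 0.07 (adjusted p = 0.0231) became -0.16 with an adjusted p of 0.0699 without shAnxa2-CTRL library 3. The untreated lines differed by 0.00 (95% interval -0.10 to 0.10). Aim2 shares its position with Cadm3 on the other strand, and whether the counting used strand is not given in the sources used here.

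Nlrp1b, a sensor that is set off by proteases such as anthrax lethal factor, was low throughout, and it has near copies in the same gene family between which reads may be divided, so its values are uncertain. Nlrp1b (chromosome 11, 71043928 to 71121559, minus strand, mm39) had 6.06, 3.88 and 4.48 CPM in shCtrl-CTRL, 3.71, 3.66 and 3.38 in shCtrl-OGDR, 3.03, 2.41 and 2.26 in shAnxa2-CTRL, and 2.70, 2.50 and 2.86 in shAnxa2-OGDR, from 50 to 145 counts. All shCtrl libraries were above all shAnxa2 libraries, and the first shCtrl-CTRL library stood well above the others. Between the untreated lines Nlrp1b differed by -0.90 ± 0.18 (adjusted p = 1.34e-04). The smaller differences were unstable. The OGD/R change of -0.41 ± 0.17 in shCtrl cells (adjusted p = 0.0367) was lost without shCtrl-CTRL library 1 (-0.22, adjusted p = 0.278) and without shCtrl-OGDR library 1, 2 or 3 (-0.37 to -0.43, adjusted p up to 0.0934), and by DESeq2 (adjusted p = 0.0503) and limma voom (0.0568). The line difference of -0.42 ± 0.19 after OGD/R (adjusted p = 0.0489) was lost by DESeq2 (0.0668) and limma voom (0.0658) too, and on leaving out any OGDR library of either line or shAnxa2-CTRL library 2 (-0.38 to -0.48, adjusted p of 0.0529 to 0.130). The interaction of 0.48 ± 0.26 was not called (adjusted p = 0.104), and without shCtrl-CTRL library 2 it was 0.60 with an adjusted p of 0.0450.

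Of the proteins that bring the sensor and caspase together, the kinase Nek7, which binds NLRP3 and is needed for its activation, moved opposite to Nlrp3. Nek7 (chromosome 1, 138410613 to 138547879, minus strand, mm39) had 137, 134 and 133 CPM in shCtrl-CTRL and 144, 146 and 151 CPM in shCtrl-OGDR. It had 121, 124 and 117 CPM in shAnxa2-CTRL and 105, 110.3 and 97.1 CPM in shAnxa2-OGDR. The 4 groups did not overlap, in the order shCtrl-OGDR, shCtrl-CTRL, shAnxa2-CTRL and shAnxa2-OGDR, which reverses the order of Nlrp3. Nek7 differed after OGD/R by 0.13 ± 0.05 in shCtrl cells (adjusted p = 0.0221) and by -0.22 ± 0.05 in shAnxa2 cells (adjusted p = 6.78e-04). The first of these calls was lost without shCtrl-CTRL library 3 (0.13, adjusted p = 0.0543) or shCtrl-OGDR library 3 (0.11, adjusted p = 0.0851). The line difference was -0.15 ± 0.05 without OGD/R (adjusted p = 0.00849) and -0.50 ± 0.05 after it (adjusted p = 2.65e-09), and the interaction was -0.34 ± 0.07 (adjusted p = 9.83e-05).

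Pycard, the gene of the adaptor ASC, sat at the floor of detection in these BV2 libraries. Pycard (chromosome 7, 127588880 to 127593039, minus strand, mm39) had 15, 21 and 12 counts in shCtrl-CTRL, 5, 10 and 8 in shCtrl-OGDR, 11, 7 and 6 in shAnxa2-CTRL, and 2, 18 and 5 in shAnxa2-OGDR. It reached 0.5 CPM in 4 of the 12 libraries, and so passed the filter, which asks for that level in 3. No comparison was called. The OGD/R log2 fold change of Pycard was -0.91 in shCtrl cells (95% interval -1.89 to 0.07), where every OGDR library was below every CTRL library. In shAnxa2 cells it was 0.06 (-1.04 to 1.16). A 2-fold fall lay inside both intervals, and a 2-fold rise inside that of shAnxa2 cells only. Without the second shAnxa2-OGDR library, which held 18 of the 25 counts of its group, the OGD/R difference in shAnxa2 cells went from 0.06 to -1.04, the line difference after OGD/R from 0.22 to -0.88, and the interaction from 0.97 to -0.14.

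The inflammatory caspases, which lie side by side on chromosome 9 with 1537 bases between them, behaved unlike each other. Casp1, the protease of the canonical inflammasome, was called in no comparison, whereas Casp4, the mouse caspase that binds lipopolysaccharide and starts pyroptosis without an inflammasome sensor, had the largest OGD/R change of the 10 genes in either line among those called. Casp1 (5298508 to 5307290, plus strand, mm39) lay between 25.2 and 35.3 CPM in all 12 libraries, with group means of 33.3 ± 2.53, 29.9 ± 1.21, 30.1 ± 3.31 and 30.4 ± 4.55 CPM (SD, n = 3) in shCtrl-CTRL, shCtrl-OGDR, shAnxa2-CTRL and shAnxa2-OGDR. Its groups overlapped in every comparison. The 95% interval of its log2 fold change was -0.34 to 0.02 for OGD/R in shCtrl cells, -0.17 to 0.20 for OGD/R in shAnxa2 cells, -0.33 to 0.03 between the untreated lines and -0.16 to 0.21 between the lines after OGD/R. The Casp1 interaction of 0.18 (adjusted p = 0.239) became 0.28 with an adjusted p of 0.0368 without shAnxa2-OGDR library 3.

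Casp4 (5308828 to 5336783, plus strand, mm39) had 27.1, 25.6 and 25.8 CPM in shCtrl-CTRL and 61.2, 59.8 and 58.7 CPM in shCtrl-OGDR. It had 75.9, 80.4 and 71.3 CPM in shAnxa2-CTRL and 52.9, 44.3 and 34.2 CPM in shAnxa2-OGDR. No groups overlapped, untreated shCtrl cells being lowest and untreated shAnxa2 cells highest, and the shAnxa2-OGDR libraries were spread more widely than the others. Casp4 rose 2.29-fold after OGD/R in shCtrl cells (log2 1.20 ± 0.09, adjusted p = 8.06e-11) and fell by 0.79 ± 0.09 on the log2 scale in shAnxa2 cells (adjusted p = 9.78e-08). Untreated shAnxa2 cells had 2.90 times the Casp4 RNA of untreated shCtrl cells (log2 1.53 ± 0.09, adjusted p = 1.35e-12), and after OGD/R the difference was -0.45 ± 0.09 (adjusted p = 1.18e-04). The interaction of -1.99 ± 0.13 was the largest of the 10 (adjusted p = 1.73e-12) and stayed between -2.14 and -1.85 on leaving out any library.

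**Figure D4:**
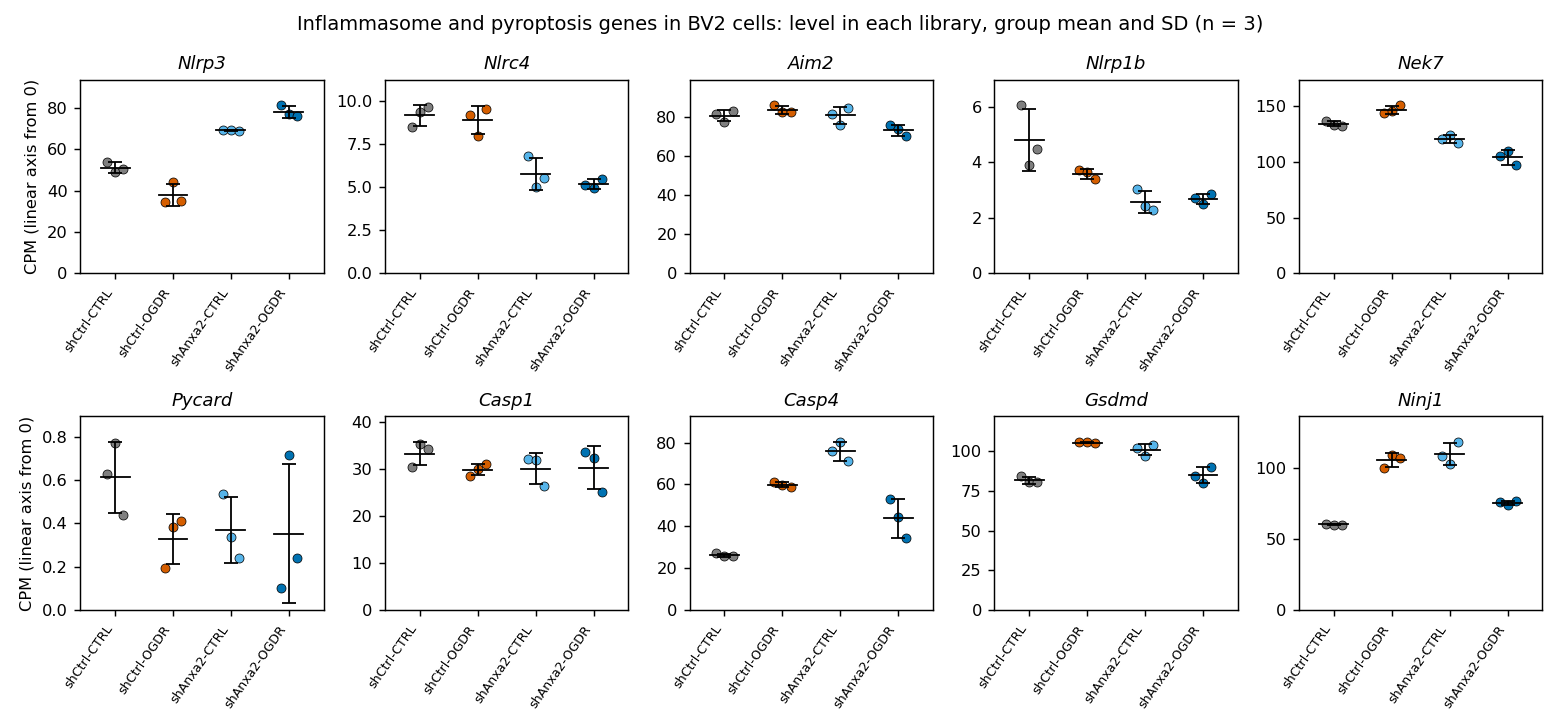
Level of each of the 10 genes in CPM (y axis, linear from 0) in the 3 libraries (points) of the 4 groups (x axis), with the group mean and SD (bars). Casp4, Ninj1 and Gsdmd rise from shCtrl-CTRL to shCtrl-OGDR and fall from shAnxa2-CTRL to shAnxa2-OGDR, Nlrp3 does the reverse, Nlrc4 and Nlrp1b are lower in the shAnxa2 line, and the groups of Casp1 overlap.

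The membrane effectors followed the pattern of Casp4 with smaller changes. Ninj1 (chromosome 13, 49340961 to 49349720, plus strand, mm39) had 61.0, 59.9 and 60.2 CPM in shCtrl-CTRL and 100.4, 109.5 and 107 CPM in shCtrl-OGDR. It had 108, 103 and 119 CPM in shAnxa2-CTRL and 76.4, 74.2 and 76.8 CPM in shAnxa2-OGDR. shCtrl-CTRL was the lowest group and shAnxa2-OGDR the next, both apart from all other libraries, while shCtrl-OGDR and shAnxa2-CTRL overlapped at the top. Ninj1 differed after OGD/R by 0.81 ± 0.05 in shCtrl cells, a 1.75-fold rise (adjusted p = 4.22e-12), and by -0.54 ± 0.05 in shAnxa2 cells (adjusted p = 1.10e-08). The lines differed by 0.87 ± 0.05 untreated (adjusted p = 1.81e-12) and by -0.48 ± 0.05 after OGD/R (adjusted p = 2.34e-08), and the interaction was -1.35 ± 0.08 (adjusted p = 1.04e-13).

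Gsdmd, the gene of the pore protein itself (chromosome 15, 75734176 to 75739257, plus strand, mm39), had 84.3, 80.5 and 80.6 CPM in shCtrl-CTRL and 106, 106 and 105 CPM in shCtrl-OGDR. It had 102, 97.2 and 104 CPM in shAnxa2-CTRL and 84.7, 80.3 and 90.1 CPM in shAnxa2-OGDR. The shCtrl-OGDR and shAnxa2-CTRL libraries were all above the other 6, and shCtrl-CTRL and shAnxa2-OGDR overlapped. Gsdmd differed after OGD/R by 0.37 ± 0.05 in shCtrl cells (adjusted p = 6.10e-07) and by -0.25 ± 0.05 in shAnxa2 cells (adjusted p = 1.68e-04). The line difference was 0.31 ± 0.05 untreated (adjusted p = 1.17e-05) and -0.31 ± 0.05 after OGD/R (adjusted p = 5.85e-06), with an interaction of -0.62 ± 0.07 (adjusted p = 3.04e-08). None of these changes reached a fold of 1.5 within a line or between lines, and only the interaction did.

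The other genes of the pathway were called in both directions in every comparison. Of 63 listed genes 55 passed the filter, and Casp12, Gbp5, Gsdma, Gsdmc, Il33, Mefv, Nlrp12 and Nlrp6 did not. After OGD/R in shCtrl cells 17 of the 55 were higher and 22 lower, beside 32.4% and 31% of all genes, and in shAnxa2 cells 17 were higher and 17 lower, beside 28.2% and 26.8%. Between the untreated lines 15 were higher and 23 lower, beside 29.5% and 29.7% of all genes, and after OGD/R 16 were higher and 21 lower, beside 33.8% and 34.2%. The interaction was called for 39 of the 55, 19 higher and 20 lower, beside 34.9% and 35.1% of all genes. The medians of their log2 fold changes lay between -0.07 and 0.09 over these 5 comparisons, against -0.01 to 0.00 over all genes.

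By group, the other sensors, of which 4 are Naip genes with near copies, had 5 higher and 1 lower of 8 tested in the shCtrl line after OGD/R, then 2 higher and 5 lower in the shAnxa2 line, beside 32.4% and 31% of all genes in shCtrl cells and 28.2% and 26.8% in shAnxa2 cells. These small groups were not tested against all genes. The priming and assembly regulators had 6 higher and 9 lower of 24 in shCtrl cells and 7 higher and 6 lower in shAnxa2 cells. The caspases and kinases of linked death pathways had 1 higher and 6 lower of 8, then 4 higher and 1 lower. The membrane repair and pore regulators had 3 higher and 2 lower of 8 in each line. The cytokines, alarmins and their inhibitors had 2 higher and 4 lower of 6, then 1 higher and 2 lower. Of the other gasdermins only Gsdme, a pore protein cut by caspase-3, was tested, and it differed by -0.33 ± 0.10 after OGD/R in shAnxa2 cells (adjusted p = 0.00618), by 0.57 ± 0.10 between the untreated lines (adjusted p = 2.28e-05) and by 0.05 ± 0.10 for OGD/R in shCtrl cells (adjusted p = 0.696).

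The cytokines that inflammasomes release did not move as a set. Il1b, whose precursor caspase-1 cleaves, had 3.26, 2.86 and 2.17 CPM in shCtrl-CTRL, 0.899, 1.34 and 1.08 in shCtrl-OGDR, 4.79, 6.45 and 3.85 in shAnxa2-CTRL, and 7.14, 5.76 and 4.66 in shAnxa2-OGDR. Il18, the other caspase-1 substrate, had 4.09, 2.56 and 3.64 CPM in shCtrl-CTRL, 4.22, 5.53 and 4.46 in shCtrl-OGDR, 3.86, 4.52 and 3.93 in shAnxa2-CTRL, and 2.45, 2.58 and 2.33 in shAnxa2-OGDR. Il1a, which signals through the same receptor as Il1b, had 2.17, 2.12 and 1.91 CPM in shCtrl-CTRL, 9.35, 9.62 and 9.42 in shCtrl-OGDR, 13.4, 12.8 and 10.2 in shAnxa2-CTRL, and 4.59, 3.38 and 2.33 in shAnxa2-OGDR. All 3 were low, and Il1b was lowest in shCtrl-OGDR, where Il1a and Il18 were above their shCtrl-CTRL means. After OGD/R in shCtrl cells Il1b differed by -1.31 ± 0.26 (adjusted p = 1.17e-04), Il18 by 0.48 ± 0.17 (adjusted p = 0.0168) and Il1a by 2.19 ± 0.17 (adjusted p = 7.60e-11). In shAnxa2 cells Il1b was not called (0.23 ± 0.19, adjusted p = 0.325), Il18 differed by -0.74 ± 0.19 (adjusted p = 0.00192) and Il1a by -1.82 ± 0.16 (adjusted p = 1.64e-09). Between the lines after OGD/R Il1b was higher with the Anxa2 shRNA by 2.39 ± 0.24 (adjusted p = 3.47e-09), as Nlrp3 was. The study reports the opposite for IL-1β in BV2 cells, by RT-PCR for RNA and by ELISA for protein. There it rose after OGD/R, and less so with Anxa2 knockdown. The methods of the study give a longer reoxygenation than the labels of these libraries, and the cause of the disagreement was not tested.

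Apart from Txnip, the genes that follow were picked for the largest called interactions of their groups, so they are not typical of those groups. Of the 24 priming and assembly regulators tested, the interaction was higher for 7, lower for 8 and not called for 9. Among the regulators, Myd88, the adaptor of toll-like and IL-1 receptors, ran against Casp4, with 90.4 ± 4.69, 49.8 ± 0.904, 55.4 ± 1.59 and 95.7 ± 2.24 CPM (SD, n = 3) in shCtrl-CTRL, shCtrl-OGDR, shAnxa2-CTRL and shAnxa2-OGDR. Its OGD/R change was -0.86 ± 0.05 in shCtrl cells (adjusted p = 7.76e-13) and 0.79 ± 0.05 in shAnxa2 cells (adjusted p = 1.36e-11). Cflar, an inhibitor of caspase-8, ran with Casp4, at 80.0 ± 1.81, 133 ± 4.16, 136 ± 6.03 and 103.7 ± 0.412 CPM in the same order, with OGD/R changes of 0.73 ± 0.05 (adjusted p = 2.00e-12) and -0.39 ± 0.05 (adjusted p = 2.27e-07). Txnip, a redox protein that binds NLRP3, averaged 235, 296, 238 and 223 CPM, and differed by 0.34 ± 0.05 after OGD/R in shCtrl cells (adjusted p = 9.51e-07) and by -0.09 ± 0.05 in shAnxa2 cells, which was not called (adjusted p = 0.0964). Chmp3 and Chmp2a, subunits of the ESCRT machinery that removes gasdermin pores, differed by 0.32 ± 0.06 (adjusted p = 2.36e-05) and 0.29 ± 0.06 (adjusted p = 9.34e-05) after OGD/R in shCtrl cells and by -0.14 ± 0.06 (adjusted p = 0.0333) and 0.00 ± 0.06 (adjusted p = 0.978) in shAnxa2 cells. Ripk3, the kinase of necroptosis, differed by -0.85 ± 0.31 (adjusted p = 0.0182) and 0.89 ± 0.34 (adjusted p = 0.0313), from 7 to 50 counts. Low counts also lay behind Naip1 (19 to 58), Nlrp10 (6 to 74) and Gbp7 (11 to 45), and Naip1 and Gbp7 have near copies. Naip1, a partner of Nlrc4, differed by 0.84 ± 0.24 (adjusted p = 0.00392) and -0.89 ± 0.27 (adjusted p = 0.00695), Nlrp10 by -0.49 ± 0.24, not called (adjusted p = 0.0815), and 1.22 ± 0.40 (adjusted p = 0.0118), and Gbp7, an interferon-inducible GTPase, by -1.23 ± 0.33 (adjusted p = 0.00208) and 0.61 ± 0.33, not called (adjusted p = 0.127), in shCtrl and shAnxa2 cells.

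The genes whose pattern over the 12 libraries was most like each of the 10, by Pearson's r of log2(CPM + 0.1), are a description only, since the libraries fall into 4 groups that much of the transcriptome separates. Nlrp3 was most like Cd1d1 (0.985) and Btla (0.984), Nlrc4 like Cttnbp2nl (0.977) and Arhgap10 (0.965), and Nlrp1b like Ncoa2 (0.961) and Atp2c1 (0.949). Nek7 was most like Rsf1 (0.981) and Nrcam (0.979), Casp4 like Cuedc1 (0.98) and Sod2 (0.978), Gsdmd like Inpp5k (0.989) and Tk2 (0.988), and Ninj1 like Pim1 (0.99) and H2-T22 (0.99). The closest genes were less alike for those that changed little, with Spg20 (0.903) and Lrrc42 (0.897) for Aim2 and Smc1a (0.901) and Uba6 (0.892) for Casp1. For Pycard, at Alas2 (0.877) and Olfr112 (0.863), the counts are too sparse for the likeness to be read.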

How the data were processed

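RNA of 12 BV2 libraries was sequenced, and the authors deposited counts of reads per protein-coding gene without normalization. Per the labels, the submitters' processing notes name HISAT2 2.0.4 and the mm39 build, while the RNA-seq methods of the study, written for hippocampi, name another aligner and HTSeq. The 12 further per-sample columns, in which the authors divided the counts by size factors, were not used. Total counts had a median of 24531756.5 per library, and 14 genes had no name. Libraries of 1 group differed by more than sampling noise (chi-square per gene of 4.01 to 13.33), and each counted as 1 replicate. Such spread does not show that the libraries came from separate cultures. The study calls the libraries of a group biological replicates, each made up of technical replicates, and no batch is named. How the technical replicates relate to the libraries is not given in the sources used here. With 1 line per shRNA, the p-values cover the spread among libraries of a line and not that between lines or shRNAs.

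The 10 genes, the 63 pathway genes and the marker lists were chosen with earlier results of these data known. edgeR 4.0.16 in R 4.3.3 fitted 1 quasi-likelihood model over the 4 groups to the 11626 genes that reached 0.5 CPM in 3 or more libraries, with TMM scaling and Benjamini-Hochberg adjustment. The SE is the log2 fold change divided by the square root of F, and intervals are 1.96 SE on each side. The common biological coefficient of variation was 5.355%. The steps were tested on simulated counts. Levels per length use GENCODE M21 exon unions of GRCm38, in place of a length from the table. Named genes are all 10, in each of 6 pathway groups the 2 with the largest called interaction, Il1b, Il18, Txnip and Anxa2, and for each of the 10 the 2 genes most like it (pseudocount 0.1). Alternatives were other size factors, filters, DESeq2 1.42.0, limma 3.58.1 voom, the replicate number as a block, only the groups compared, a fold limit, another length and each library left out. The fold limit and the pathway list under these alternatives were chosen after seeing the data. Python 3.11.15 with pandas 2.3.3 and matplotlib 3.10.9 made the tables and plots. Hippocampal and protein data were not analysed here.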

Additional observations from a re-analysis of the deposited data

Results flagged for a closer look

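For 20 of the named genes the OGD/R change differed between the 2 lines by the test of the interaction in edgeR (adjusted p under 0.05), which is why they are listed here. Among the 10 inflammasome and pyroptosis genes the interaction, as a log2 fold change of shAnxa2 over shCtrl, was 0.60 for Nlrp3, -0.19 for Aim2, -0.34 for Nek7, -1.99 for Casp4, -0.62 for Gsdmd and -1.35 for Ninj1. The targeted gene Anxa2 had -1.74. Of the sensors and regulators Naip1 had -1.73, Nlrp10 1.70, Gbp7 1.84, Myd88 1.65 and Txnip -0.43. Of the genes of linked death pathways and pores Ripk3 had 1.74, Cflar -1.12, Gsdme -0.38, Chmp3 -0.46 and Chmp2a -0.29. Of the cytokines Il1a had -4.01, Il1b 1.53 and Il18 -1.21. The pathway genes here other than Il1b, Il18 and Txnip had been named because their interaction was called. Their place on this list was therefore fixed beforehand, and the count of 20 cannot be set against a share of all genes. Of the 10 genes chosen by name, the interaction was higher for 1 and lower for 5. Over all genes tested it was called for 34.9% upward and 35.1% downward. The distances between the groups given above, with shAnxa2-OGDR closest to shCtrl-CTRL, move with these values, and their part in them was not tested.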

How the results depend on the processing

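Of 335 results recomputed under other settings, 326 kept their direction and side of the threshold, 4 lost the call and 5 turned direction, and of 600 with 1 library left out 559 kept both, 22 lost the call, 2 gained it and 17 turned. With a fold over 1.5 required as well, the genes called of the 10 fell to 2 and 1 for OGD/R in shCtrl and shAnxa2 cells, and to 4 and 2 between the lines without and after OGD/R, and without shAnxa2-CTRL replicate 2 that count for OGD/R in shAnxa2 cells was 2, against 1 otherwise (range 1 to 2). With the longest coding transcript as the length, the ranks by level were 4 for Aim2, 6 for Casp1, 7 for Nlrp3 and 3 for Casp4. The turned values were all of genes that were not called. Pycard in shAnxa2 cells after OGD/R gave -0.0094 by DESeq2, -0.26 by limma voom and -0.0196 with the replicate number as a block, Casp1 there gave -0.0151 without a filter, and the Pycard line difference after OGD/R gave -0.10 by voom. Leaving out 1 library gave ranges of -0.103 to 0.0276 for Nlrc4 after OGD/R in shCtrl cells, -0.0193 to 0.202 for Nlrp1b, -1.04 to 0.45 for Pycard and -0.0774 to 0.127 for Casp1 after OGD/R in shAnxa2 cells, -0.0340 to 0.0431 for Aim2 between the untreated lines, -0.88 to 0.62 for Pycard and -0.0491 to 0.133 for Casp1 between the lines after OGD/R, and -0.198 to 0.0163 for Nlrc4 and -0.14 to 1.36 for Pycard in the interaction. The low counts of Pycard limit its values. For the other genes that turned, the log2 fold change of the main fit was smaller than its SE, so its sign was not settled there. The cause of these turns was not tested.

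Libraries of the same number in different groups did not deviate together (correlations of -0.051 to 0.135), so the numbers were not taken to pair them. With the replicate number as a block, 6, 6, 7, 8 and 6 of the 10 genes were called in the 5 comparisons, as without it, and the Anxa2 line differences were -2.09 and -3.83.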
